A study of Rattus norvegicus with 4 samples.

Results

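The genes described here make glutathione and remove superoxide and peroxides: Gclc, Gclm, Gss, Gsr, Gpx1, Gpx4, Cat, Sod1 and Sod2. They were chosen by name. Their probes were taken as the sample probes whose accession matched the rat RefSeq symbol, and all 9 were found, on 11 probes and 30 spots, among 16573 measured genes. Messenger RNA was measured on 4 one-colour arrays, each from a separate biological replicate of NR8383 cells, a macrophage line established from the lung lavage of a normal rat. All 4 cultures had been given COOH-functionalized carbon nanotubes (the material NRCWE042) at 6.8 cm2 of nanotube surface per cm2 for 4 h, after 20 passages, and are called replicates 1 to 4. The design set exposed cells against unexposed ones. Unexposed samples were not analysed here, so no value below is an effect of the nanotubes, and no test between conditions was made.

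Glutathione is a small thiol made in a pair of steps. Glutamate-cysteine ligase, whose catalytic subunit is encoded by Gclc and whose modifier subunit is encoded by Gclm, joins glutamate to cysteine and limits the rate; glutathione synthetase, encoded by Gss, then adds glycine. Superoxide dismutases turn superoxide into hydrogen peroxide, with the copper-zinc enzyme of Sod1 mostly in the cytosol and the manganese enzyme of Sod2 in the mitochondrial matrix. Catalase, encoded by Cat, breaks hydrogen peroxide down in peroxisomes, while the selenoenzymes of Gpx1 and Gpx4 reduce peroxides with glutathione, Gpx4 those of membrane lipids. Glutathione reductase, encoded by Gsr, restores the oxidised product with NADPH. Macrophages make superoxide themselves through the phagocyte NADPH oxidase.

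A level is the log2 processed signal minus the array's 75th percentile over sample probes. It places a gene relative to the other probes of the same array. Probes differ in affinity, so levels give no order between genes. The software's mark for signal well above background, borne on all 4 arrays by 1 probe or more, made a gene count as detected. The 75th percentile lay at a signal of 128, 131, 98.5 and 49.0 on replicates 1 to 4, while the spike-in signal of replicate 4 was 0.934 times that of replicate 1, so the sample signal and not the spike-in signal was low on replicate 4. All arrays shared 1 slide and 1 scan. Of all measured genes 44.4% were detected. Of 14 measured macrophage markers 11 were detected, among them Cd68, Csf1r and Spi1, while Marco, Adgre1 and Cd163 were detected on no array. None of 7 lung epithelial, 5 fibroblast, 3 T cell, 1 B cell and 3 neutrophil markers was detected on all arrays, whereas 3 of 4 endothelial markers (Pecam1, Cdh5 and Vwf) were.

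RefSeq promoter windows (GRCr8) were at hand for 8 of the 9 genes. The 250 bases before each annotated start were searched on both strands for the core of the antioxidant response element, TGACNNNGC, the DNA element through which the factor NRF2 acts, and for the GC box, GGGCGG. The windows of Gclm and Sod2 hold the core, as do 10.1% of all 33469 windows, and those of 6 genes hold a GC box, as do 30.5% of all windows. Gclm was the gene of the set whose probe was not detected. On the 75th percentile scale Sod2, together with Gclc, ran against Gss, Gsr, Gpx1 and Gpx4 on replicates 2 and 4. The level of Gpx4 varied most on that scale. Shown are the windows of Gclm, Sod2 and Gpx4, which were chosen after the values were seen. They lie at chr2:213031885-213032134 (plus strand), chr1:50050169-50050418 (minus strand) and chr7:10303630-10303879 (minus strand), upstream of every RefSeq transcript of the gene. Capitals mark the matches, in Gclm the GC box and then the core, in Sod2 likewise, and in Gpx4 4 GC boxes, 2 of which share a base.
Gclm: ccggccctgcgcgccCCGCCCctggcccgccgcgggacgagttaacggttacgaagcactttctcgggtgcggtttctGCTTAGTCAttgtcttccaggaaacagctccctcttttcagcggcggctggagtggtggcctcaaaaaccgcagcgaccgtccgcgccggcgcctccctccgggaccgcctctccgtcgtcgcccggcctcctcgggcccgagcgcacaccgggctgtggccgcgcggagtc
Sod2: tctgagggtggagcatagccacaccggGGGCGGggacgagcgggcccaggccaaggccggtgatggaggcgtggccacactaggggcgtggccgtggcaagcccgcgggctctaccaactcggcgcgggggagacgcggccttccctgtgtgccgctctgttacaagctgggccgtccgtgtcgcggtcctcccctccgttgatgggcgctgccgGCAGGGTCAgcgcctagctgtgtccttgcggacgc
Gpx4: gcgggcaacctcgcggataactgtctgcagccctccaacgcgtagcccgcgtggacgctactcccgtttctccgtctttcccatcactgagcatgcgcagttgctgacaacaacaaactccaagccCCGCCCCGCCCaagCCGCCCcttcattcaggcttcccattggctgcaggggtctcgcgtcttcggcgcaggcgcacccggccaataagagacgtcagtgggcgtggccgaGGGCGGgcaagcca
The core of Gclm starts 172 bases and that of Sod2 35 bases before the start, each as the reverse complement in the window as printed. A match describes these letters only; binding was not measured.

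Of the 9 genes, 8 were detected on all 4 arrays, where 44.4% of all measured genes were. The exception was Gclm. Detection shows that a probe gave signal and not that the pathway was active.

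The subunits of glutamate-cysteine ligase differed in detection. Gclc had processed signals of 1920, 2080, 1350 and 567 on replicates 1 to 4, and its levels were 3.91, 3.99, 3.78 and 3.53, a mean of 3.80 ± 0.20 (SD, n = 4). Its level was lowest on replicate 4 and highest on replicate 2. Gclm had signals of 5.26, 5.96, 6.50 and 4.45, beside medians of 5.16, 5.68, 5.23 and 4.58 over 308 negative control spots per array. On each array the Gclm signal thus lay between the 5th and the 95th percentile of the negative controls, 4.99 to 6.50 on replicate 2 and 4.70 to 7.33 on replicate 3 for example. The software's own error for the Gclm spot was 80.4% to 101% of its signal, against 10.0% for Gclc. Gclm has 1 probe with 1 spot, so this reading concerns that probe alone and leaves the presence of the transcript unknown. No spread or shift of Gclm is read from its levels, which run from -4.60 to -3.46 as the scaling of a background signal sets them.

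Gss, the synthetase of the last step, had levels of 3.02, 2.94, 3.30 and 3.45 (3.17 ± 0.24, SD, n = 4), from signals of 1030, 1000, 967 and 535. The signal of Gss stayed within a narrow band on replicates 1 to 3. On replicate 4 it fell less than the 75th percentile did, so its level was highest there. Under spike-in scaling (-0.58 from its mean) and normexp (-0.08) its level was lowest there instead. The spots around the single Gss spot stood at a median of -0.15, -0.14, 0.11 and 0.25 relative to the other arrays, on the same side as Gss. Those around Sod2 stood at -0.21, -0.28, 0.24 and 0.28, on the side opposite to Sod2. What lies behind this was not tested.

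Among the genes that use or restore glutathione, levels were higher on replicates 3 and 4 for Gsr and on replicate 4 for both peroxidases. Gsr, the reductase, read 2.73, 2.77, 3.28 and 3.47 (3.06 ± 0.37, SD, n = 4). Replicates 1 and 2 lay close together and below the others. Gpx1, the cytosolic and mitochondrial peroxidase, read 7.21, 7.14, 7.31 and 7.69 (7.34 ± 0.25, SD, n = 4) on its brighter probe. Gpx4, the lipid peroxidase that guards against ferroptosis, read 9.43, 9.37, 9.81 and 10.35 (9.74 ± 0.45, SD, n = 4) on its brighter probe. Replicate 4 stood highest for both, but with spike-in scaling the order turned round: Gsr, Gpx1 and Gpx4 were lowest there, at -0.44, -0.49 and -0.24 from their own mean. Under normexp Gpx1 was also lowest there, at -0.06, and Gsr was highest on replicate 3.

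Cat and Sod1 varied little on this scale, though with spike-in scaling their SDs were 0.60 and 0.58, and under normexp that of Sod1 was 0.25. Cat, the peroxisomal catalase, read 0.61, 0.34, 0.56 and 0.56 (0.52 ± 0.12, SD, n = 4), with replicate 2 a little below the rest. It was the dimmest detected probe of the set, with signals of 195, 165, 145 and 72.5, and the software put its error at 10.4% to 12.1%. Sod1, the copper-zinc dismutase, read 8.59, 8.54, 8.61 and 8.69 (8.61 ± 0.06, SD, n = 4). Sod2, the mitochondrial dismutase that inflammatory signals are known to induce, read 5.13, 5.36, 4.99 and 4.99 (5.12 ± 0.17, SD, n = 4), with replicate 2 highest and replicates 3 and 4 equal on this scale. Its SD was 0.50 under normexp and 0.79 with spike-in scaling, with replicate 4 lowest in both. The plot of levels shows each value.

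**Figure D1:**
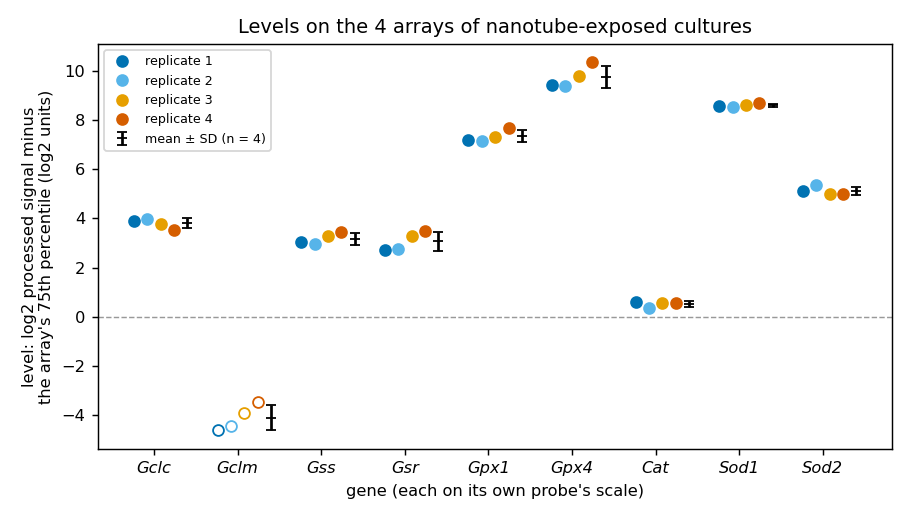
Levels of the 9 genes on the 4 arrays (vertical axis, log2 units relative to the array's 75th percentile, dashed at 0), with the mean and SD over the 4 arrays in black beside the points. Open points are Gclm, not well above background on any array; the points of Sod1 nearly coincide, and those of Gpx4 spread from 9.37 to 10.35. Genes are not to be ranked against each other.

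The spread between cultures was of the size found for other genes. The 8 detected genes had a median SD of 0.22 log2 units, and all 7361 detected genes a median of 0.25. None of the 8 had an SD above 0.5, as 11.6% of all detected genes had. On the 75th percentile scale Gpx4 varied most within the set, with 83.1% of detected genes showing a smaller SD, and its highest level was 1.97-fold its lowest. Sod1 varied least on that scale, with 5.41% of detected genes showing a smaller SD, and its highest level was 1.11-fold its lowest. Gsr (72.3% of genes with a smaller SD) lay between Gpx4 and the rest, which stood at 48.7% for Gpx1, 46.9% for Gss, 37.9% for Gclc, 31.8% for Sod2 and 18.6% for Cat. These SDs rest on the scaling: with the spike-ins as the common scale the median was 0.50 for the 8 genes and 0.58 for all detected genes, and Gclc then had an SD of 0.84 and Gpx4 0.19. The order of the genes by SD also turned with the background correction: under normexp Sod2 (0.50), Gclc (0.39) and Sod1 (0.25) exceeded Gpx4 (0.17), and Gpx1 (0.05) was lowest. Under quantile normalization Gsr (0.31), Gclc and Sod2 (0.27 each) exceeded Gpx4 (0.24). Without replicate 4 the SD of Gpx4 was 0.24, below that of Gsr (0.31), and those of Gclc and Gpx1 were 0.11 and 0.08. Without replicate 2 it was 0.08 for Sod2 and 0.03 for Cat.

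**Figure D2:**
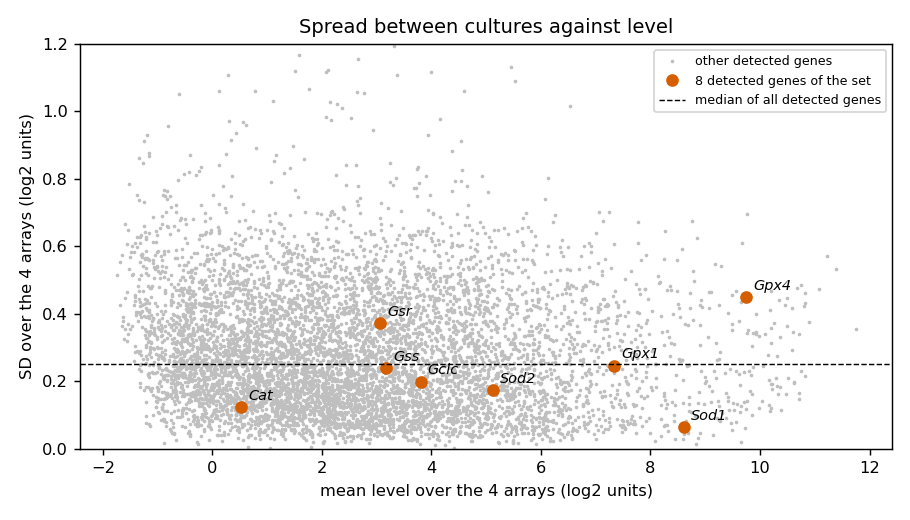
SD over the 4 arrays (vertical axis, log2 units) against mean level (horizontal axis, log2 units) for every detected gene in grey and the 8 detected genes of the set in orange, with the median SD of 0.25 dashed. Gpx4 and Gsr lie above the dashed line and Sod1 near the bottom; 28 genes with an SD above 1.2 fall outside the axis.

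Across arrays the 8 genes fell on both sides of the other genes. Deviations below are a gene's level minus its own mean over the 4 arrays. Counts of the 8 genes above their own mean were 3, 2, 5 and 6 on replicates 1 to 4, where 38.7%, 41.9%, 61.9% and 59.6% of all detected genes were. Gss, Gsr, Gpx1 and Gpx4 were below their mean on replicates 1 and 2 and above it on replicate 4, by 0.27, 0.41, 0.36 and 0.61, on the side where the median of all detected genes lay (-0.07 on replicates 1 and 2, and 0.10 on replicate 4); with spike-in scaling all 4 were below their mean on replicate 4, as Gss and Gpx1 were under normexp. Gclc deviated by 0.11, 0.19, -0.02 and -0.27 on replicates 1 to 4 and Sod2 by 0.01, 0.24, -0.13 and -0.13, on the other side. The plot of deviations sets these values beside the middle of all detected genes.

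**Figure D3:**
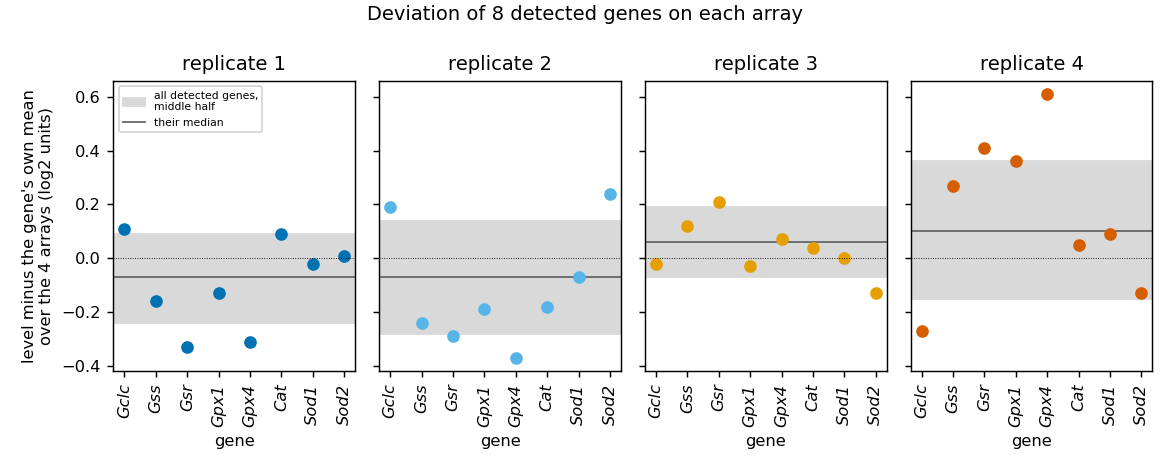
Deviation of each of the 8 detected genes from its own mean (vertical axis, log2 units), a panel for each array, over a grey band from the 25th to the 75th percentile of all detected genes and a line at their median. On replicate 4 Gpx4 (0.61) lies above the band and Gclc (-0.27) below it; with spike-in scaling all 8 genes are below their own mean there.

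With the spike-ins as the scale, all detected genes had median deviations of 0.37, 0.49, -0.09 and -0.75 on replicates 1 to 4, so deviations were also read relative to the array's own median. Relative to it, Gclc stood at -0.37 and Sod2 at -0.23 on replicate 4. Over the 11 settings that include this array (the main setting and 10 alternatives of background, scaling, probe, spot and replicate choice) Gclc ranged from -0.45 to -0.29 and Sod2 from -0.42 to -0.13. Several of these settings could hardly move the values. Scaling by the spike-ins or by detected probes shifts a whole array and cannot change a value relative to its median. For Gclc and Sod2, with a single probe and no spot marked as an outlier, probe and spot choices acted only through that median. On replicate 2 the same genes stood at 0.26 and 0.31, with ranges of 0.13 to 0.31 for Gclc and 0.23 to 0.51 for Sod2. Gpx4 stood at 0.51 on replicate 4 (range 0.26 to 0.52), Gsr at 0.31 (0.19 to 0.37), Gpx1 at 0.26 (0.07 to 0.26) and Gss at 0.17 (0.05 to 0.20). No setting took the dimmer probe of Gpx1 or of Gpx4 alone. On these dimmer probes the deviation on replicate 4 was 0.11 for Gpx1 and 0.31 for Gpx4, beside 0.10 for the median of all detected genes. Gss, Gsr, Gpx1 and Gpx4 were below the median of all detected genes on replicate 2 in all the settings that include it. Cat (-0.09 to 0.09) had no settled side on replicate 4, and Sod1 ranged from -0.24 to 0.00. The median of all genes hides a dependence on level. On replicate 4 the detected genes nearest in level had median deviations of 0.26 for Gpx1 (itself 0.36), 0.29 for Gpx4 (0.61), 0.28 for Sod1 (0.09), 0.10 for Gss (0.27) and 0.06 for Gsr (0.41). For Gclc (-0.27) they had 0.13, for Sod2 (-0.13) 0.16 and for Cat (0.05) -0.03. Set against genes nearest in level, Gpx1 and Gpx4 on their brighter probes thus stood less far above, and Gpx4 no longer stood above Gsr. Sod1 lay below, and Gclc and Sod2 lay a little further below. The genes nearest to Gpx4 spanned levels from 8.51 to 11.74, so they were alike in level only roughly. The replicates are 4 cultures of the same condition, so these shifts describe differences between cultures or arrays, and what lies behind them was not tested.

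Differences between genes within an array do not change when a whole array is multiplied by a factor. Over the 28 pairs of the 8 genes, the SD of the log2 difference over the 4 arrays had a median of 0.27, beside 0.34 for all pairs of detected genes. Gclc against Gpx4 had the largest SD in the main setting, 0.65: their difference lay 0.42, 0.55, -0.09 and -0.88 from its own mean on replicates 1 to 4, and without replicate 4 the SD was 0.34, and under quantile normalization 0.50. Gclc against Gsr had an SD of 0.56, and it exceeded Gclc against Gpx4 without replicate 4 (0.40) and under quantile normalization (0.57). With the mean over probes it did so too, at 0.56 against 0.53. At the other end, Gclc and Sod2 kept a difference with an SD of 0.12, although under normexp background correction it was 0.34. Gss and Gpx1 had 0.10, as did Cat and Sod1, in the main setting. Under normexp Cat and Sod1 parted on replicate 4, at -0.04 and -0.37 from their own means.

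The processed signals show the fall on replicate 4 with no scaling applied. The signal on replicate 4 was 0.295 times that on replicate 1 for Gclc and 0.348 times for Sod2, against 0.383 times for the array's 75th percentile and 0.428 times for the median detected gene. It was 0.371 times for Cat and 0.413 times for Sod1, near those marks. It was 0.517 times for Gss, 0.643 times for Gsr, and 0.538 times for Gpx1 and 0.726 times for Gpx4 on their brighter probes.

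Where a gene had a pair of probes, they differed in how far they moved. The dimmer probe of Gpx4 read 7.48, 7.42, 7.57 and 7.90 (SD 0.21), and its signal on replicate 4 was 0.514 times that on replicate 1, against 0.726 times on the brighter probe. The brighter Gpx4 probe had signals of 88400, 86800, 88400 and 64100; no spot on any array was marked saturated. The dimmer probe of Gpx1 read 6.68, 6.59, 6.68 and 6.80 (SD 0.09), and its signal on replicate 4 was 0.416 times that on replicate 1, between the ratios of the 75th percentile and the median detected gene. Both probes of each gene were highest on replicate 4 on the 75th percentile scale, which the spike-in scale reverses. The dimmer probes fell further than the brighter ones, to 0.416 times for Gpx1 and 0.514 times for Gpx4. The spike-in signal on replicate 4 was 0.934 times that on replicate 1. With the mean over probes the SD was 0.16 for Gpx1.

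Gpx1 also shows the error within an array, since each of its probes has 10 spots. On the brighter probe, spots ranged from 18200 to 19500 on replicate 1, from 17800 to 19100 on replicate 2, from 13500 to 19200 on replicate 3 and from 9600 to 11500 on replicate 4. The SD between spots was 0.04, 0.04, 0.15 and 0.08 log2 units on the 4 arrays, and the SD between arrays was 0.25. On the dimmer probe the SD between spots was 0.05, 0.05, 0.08 and 0.08 over the spots used, and the SD between arrays was 0.09. On both probes the SD between spots is that of single spots, whereas the SD between arrays is that of averages over up to 10 spots. An average varies less than its single spots, so these SDs are not directly comparable. On the dimmer probe, 1 spot of replicate 3 read 2930, while the highest read 11000, and the software marked it as an outlier, so it was left out. The spots around it stood at a median of -1.41 log2 units relative to the other arrays. It was the single spot of the 30 that lay in an area of low signal, which held 3.48% of the sample spots of replicate 3. The 2 spots of Gclc read 1900 and 1950 on replicate 1, 1280 and 1430 on replicate 3, and 541 and 594 on replicate 4. The SD between them was 0.02, 0.02, 0.11 and 0.10 on replicates 1 to 4, beside 0.20 between the averages of the 4 arrays. On replicate 4 the spots around the lower one stood at -0.19 and those around the other at 0.02, relative to the other arrays. None of the Gclc spots lay in the area of low signal.

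**Figure D4:**
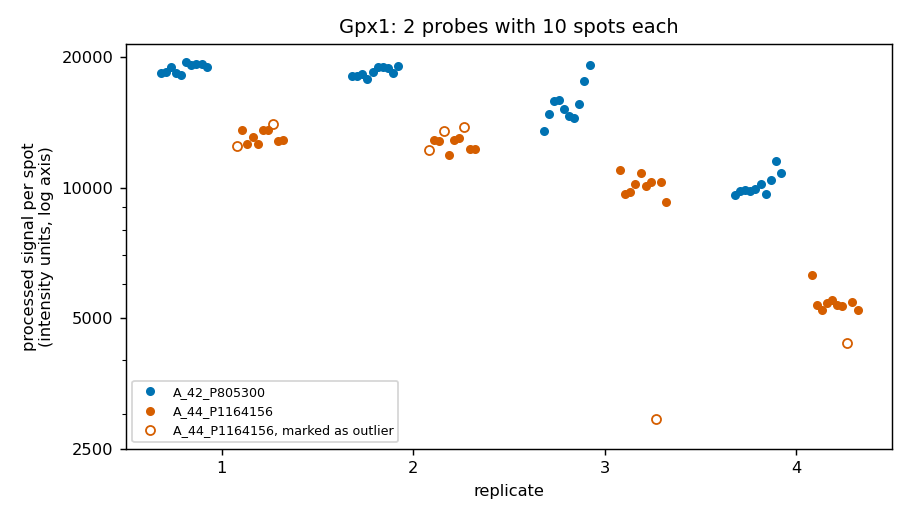
Processed signal of every Gpx1 spot (vertical log axis, intensity units) on the 4 arrays for the probes A_42_P805300 (blue) and A_44_P1164156 (orange), with open points for spots the software marked as outliers. The 10 spots of a probe lie close together on replicates 1 and 2 and spread from 13500 to 19200 for the blue probe on replicate 3, where 1 orange spot falls to 2930.

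The detected genes whose deviations were nearest to those of Gpx4 and Sod1, the most and the least variable members in the main setting, were looked up by root mean square difference over the 4 arrays. For Gpx4 these were the tubulin gene Tuba1b (0.017), Cyba (0.023), which encodes the small membrane subunit of the phagocyte NADPH oxidase, and Numb (0.025). Cyba read 10.17, 10.09, 10.52 and 11.02. For Sod1 they were Ttpal (0.0066), the splicing factor gene Sf3b4 (0.0095) and Dnase1l1 (0.010). With 4 arrays and 7361 detected genes, close matches are a description of these arrays only.

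The genes around the set were detected to different extents, beside 44.4% of all measured genes. Of the genes that supply, export or turn over glutathione, 12 of 18 were detected, without Ggt1, Ggt5, Ggt6, Ggt7, Dpep1 and Cbs. The gamma-glutamyl transferases among these break glutathione down outside the cell. Ggt7 was detected on 3 of the 4 arrays, and the count was 13 when 3 arrays were asked for. Slc7a11 and Slc3a2, the subunits of the cystine transporter, were detected. Slc7a11 read 3.82, 3.76, 3.59 and 3.34 on replicates 1 to 4, with an SD of 0.21 and the lowest level on replicate 4. In the main setting Slc3a2 went the other way, at 5.14, 5.20, 5.54 and 5.65, with an SD of 0.25 and the highest level on replicate 4. It lay 0.27 above its own mean there. Spike-in scaling lowers the whole of replicate 4 by more than that. The median deviation of all detected genes on that array was 0.10 in the main setting and -0.75 with spike-in scaling. The opposite directions of the subunits thus rest on the scaling, whereas their difference within an array does not. The members with the widest spread were Cth (-0.37 ± 0.50, SD, n = 4), which makes cysteine from cystathionine, Chac1 (1.28 ± 0.49, SD, n = 4), which degrades glutathione in the cytosol, and Lap3 (-0.61 ± 0.46, SD, n = 4). Chac1 read 0.92, 0.90, 1.33 and 1.95, and Cth read -0.21, 0.27, -0.78 and -0.74.

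The remaining peroxidases and the extracellular dismutase were not detected. Gpx2, Gpx3, Gpx5, Gpx6, Gpx7, Gpx8 and Sod3 were well above background on no array. The single detected gene of that list of 8 was Ccs, the copper chaperone that loads Sod1, at 4.31, 4.24, 4.69 and 4.81 (4.51 ± 0.28, SD, n = 4). Gpx1 and Gpx4 were thus the glutathione peroxidase genes with a detected probe on these arrays. Glutathione transferases and glutaredoxins had 13 of 24 detected, or 54.2%, near the 44.4% of all measured genes. Glrx (4.49 ± 0.35, SD, n = 4), Gstm4 (2.14 ± 0.33, SD, n = 4) and Gstp1 (6.57 ± 0.31, SD, n = 4) were the most variable. Near-identical transferase genes may share signal on an array, so single members are uncertain.

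Among sources of superoxide and peroxide, 9 of 24 were detected, or 37.5%, near the 44.4% of all measured genes. The detected genes included Cyba, Cybb, Ncf1, Ncf4, Rac1 and Rac2, all parts of the phagocyte oxidase. Nox1, Nox3, Nox4, Duox1 and Duox2, the catalytic subunits of other oxidases, were not detected. Rac1 read 4.08, 4.19, 2.83 and 4.03 (3.78 ± 0.64, SD, n = 4), low on replicate 3, where its probe lay in the area of low signal; the spots around it stood at -1.15. Cyba (10.45 ± 0.43, SD, n = 4) and Rac2 (5.50 ± 0.34, SD, n = 4) followed in spread, and Ncf1 read 5.48, 5.44, 5.38 and 5.49. Without replicate 3 the list's median SD was 0.11, against 0.18 with it.

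Genes for selenoprotein synthesis, on which Gpx1 and Gpx4 depend for their selenocysteine, were detected on all 4 arrays in 6 of 8 cases. The share of all measured genes was 44.4%. The exceptions were Pstk, detected on 3 arrays, and Sephs1, detected on 2. Eefsec, the elongation factor for selenocysteine, read 2.69, 2.54, 3.28 and 3.46 (3.00 ± 0.45, SD, n = 4), Sephs2, which makes the selenium donor, 3.09 ± 0.27 and Scly 0.44 ± 0.25 (SD, n = 4 each). Peroxisome import genes, needed for catalase to reach its organelle, were detected on all 4 arrays in 8 of 10 cases. The exceptions were Pex13, detected on 1 array, and Pex26, detected on no array. In the main setting Pex6 (1.76 ± 0.54, SD, n = 4), Pex14 (4.06 ± 0.47, SD, n = 4) and Pex10 (-0.94 ± 0.35, SD, n = 4) varied most. Cat itself had an SD of 0.12 there, below the list's median SD of 0.35. With spike-in scaling the SD of Cat was 0.60, above the list's median of 0.51. The contrast between Cat and the import genes thus rests on the scaling.

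**Figure D5:**
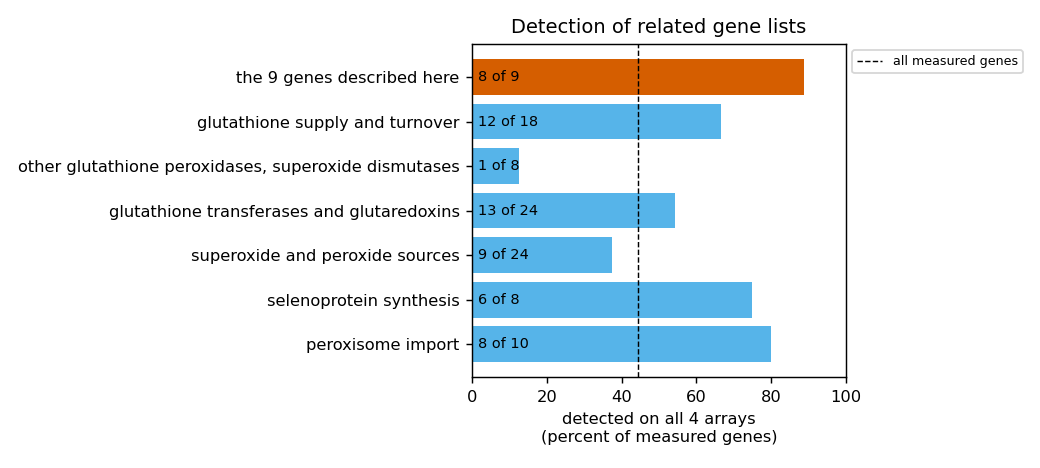
Share of measured genes detected on all 4 arrays (horizontal axis, percent) for the 9 genes in orange and 6 related lists in blue, with the counts written in the bars and a dashed line at 44.4% for all measured genes. The list of other peroxidases and dismutases stands lowest, with 1 of 8.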

How the data were processed

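Arrays of 4 nanotube-exposed cultures (1 group, replicates as labelled) were analysed; unexposed samples were not analysed here. The deposited files hold 1-colour spot intensities, written by Agilent Feature Extraction, version 11.0.1.1, per the file headers and the submitters' processing notes, with the processed intensity background-corrected and detrended within each array and not normalized between arrays. The deposited files also hold other marks, 0 or 1 per spot, for detection, saturation and outliers, per the file headers. Here log2 was taken, spots marked as outliers were left out, the spots of each of 45598 sample probes were averaged, and the 75th percentile of these probes was then subtracted on each array. Of these probes 21102 matched a RefSeq transcript accession (GRCr8 table; the headers name an older build, so no probe coordinates are given) and 24496 did not. A gene with several probes took its brightest. A probe counted as detected on an array when over 50% of its spots were marked. Raw spot medians served in place of means for normexp (offset 50), since the files hold no means. Precision is limited by the 4 arrays and by signal over background.

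The 9 genes and the 6 related lists were chosen with earlier results of these data known. Named were the 9 genes and the undetected or detected members of a list where 6 or fewer. The 3 detected members per list with the largest SD were named too. So were the 3 genes nearest in pattern to the most and the least variable member. Slc7a11, Slc3a2, Ncf1 and the longer lists of names for oxidases and peroxidases were added after their values were seen. A spot lay in an area of low signal when the median deviation from the other arrays over at least 10 detected spots within 6 rows and columns was below -0.5. Python 3.11.15, numpy 2.4.6, pandas 2.3.3, R 4.3.3 and limma 3.58.1 were used, and the steps were tested on simulated data.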

Additional observations from a re-analysis of the deposited data

Results flagged for a closer look

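Of 29 genes whose 4 levels were examined by Dixon's test, which chance alone passes for about 1 in 20 groups, Rac1 stood out with a ratio of 0.884: replicate 3 read 2.83 against 4.08, 4.19 and 4.03 on the other arrays, and its probe sits in that array's low-signal area, where the spots around it stood at -1.15. The 29 genes include those named for their large SD within a list, and 1 of 29 is no more than chance gives. None of the 8 detected genes of glutathione and peroxide handling passed that test.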

How the results depend on the processing

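The count of 8 detected genes out of 9 was the same under all 10 alternatives for detection or replicates, and that of all measured genes stayed within 1.5 times of 7361. In the list of other peroxidases and dismutases, 2 genes counted as detected when positive and significant signal, a looser mark, was asked for. With spike-in scaling the median SD became 0.50 for the 8 genes and 0.58 for all detected genes, and the genes' median deviation 0.36, 0.37 and -0.67 on replicates 1, 2 and 4. Under normexp that deviation was -0.07 on replicate 4, and the difference of Gclc and Sod2 had an SD of 0.34. Leaving out a replicate in turn gave SDs of 0.34 to 0.79 for the difference of Gclc and Gpx4. The area of low signal was left out as an alternative chosen after seeing the data. Levels of 9 genes under normexp and of Gpx1 (7.01) and Gpx4 (8.67) with the mean over probes moved by more than their SD. No paired analysis was possible because the arrays form 1 group. Signal over background limits Gclm and Cat most.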
